A study of Mus musculus with 2 samples.

Results

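The genes described here are 38 mouse genes that fold, inspect, degrade and ship out the proteins made at the endoplasmic reticulum. They were listed by name for that function, with no threshold on a measured value but with earlier results of these data known. Every probe set whose platform annotation names exactly 1 gene, and that gene among the 38, was taken. All 38 genes had a probe set, 89 in all, out of 34945 probe sets and 18193 genes on the array with a single annotated gene. By role they are 12 chaperones and co-chaperones, 5 genes of disulfide bond formation, 9 genes of degradation, 6 stress sensors and transcription factors, and 6 genes of translocation and export. Ero1l stands in the annotation under its current symbol, Ero1a.

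The study compared 1 culture of unsorted bone marrow cells from Cpdm mice with 1 culture from wildtype mice. Cpdm is the chronic proliferative dermatitis line, whose spontaneous Sharpin mutation removes a subunit of the ligase complex that builds linear ubiquitin chains. Both cultures grew for 10 days with ascorbic acid at 50 µg/ml and β-glycerophosphate at 10 mM and got no further treatment, conditions under which marrow stromal cells make collagen and mineralise. Each culture gave 1 Affymetrix array, so no difference below has a replicate check, a test or a p-value. The sources used here do not give the strain background, age, sex or number of the mice. In unsorted cells, fewer cells of a type and less RNA per cell cannot be told apart.

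Secreted and membrane proteins enter the endoplasmic reticulum through the Sec61 channel, fold with the help of BiP (Hspa5), the lectin chaperones calnexin and calreticulin and the disulfide isomerases, and leave in vesicles with a COPII coat. Chains that fail to fold are pulled back to the cytosol and destroyed. When folding falls behind, the sensors IRE1 (Ern1), PERK (Eif2ak3) and ATF6 switch on the unfolded protein response, which acts through Xbp1, Atf4 and the cleaved form of Atf6. Osteoblasts carry a heavy load on this route because they secrete large amounts of procollagen, and in mice the related membrane-bound factor OASIS (Creb3l1) drives Col1a1 transcription in these cells.

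Some of the promoters of these genes, though not most, hold a short element through which the unfolded protein response is known to act. RefSeq promoters of mouse build GRCm38.p6, running from 250 bases before to 50 bases after each gene's start, were found for 31 of the 38 genes; Atf6, Creb3l1, Derl1, Hyou1, Manf, Sec61a1 and Sil1 had none in the table used. Exact matches on both strands were sought for 4 motifs, of which the first 3 can overlap because each holds CCACG or its reverse complement. The classical element ERSE, which is CCAAT, any 9 bases and CCACG, was in 9 of the 31 genes (Hspa5, Hsp90b1, Calr, Canx, Dnajc3, Creld2, Pdia6, Syvn1 and Derl3) and in 0.119% of 32851 promoters. The 6 examples here show that it sits in genes of several roles, with the element in capitals and, for Calr and Derl3, in its reverse complement.
Hspa5, chr2:34772005-34772063, plus strand: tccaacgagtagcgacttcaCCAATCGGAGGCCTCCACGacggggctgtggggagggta
Calr, chr8:84847055-84847113, minus strand: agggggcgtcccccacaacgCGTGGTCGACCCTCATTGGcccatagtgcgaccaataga
Canx, chr11:50325780-50325838, minus strand: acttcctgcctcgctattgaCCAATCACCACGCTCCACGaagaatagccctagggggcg
Pdia6, chr12:17266471-17266529, plus strand: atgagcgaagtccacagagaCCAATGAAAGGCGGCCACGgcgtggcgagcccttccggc
Syvn1, chr19:6046512-6046570, plus strand: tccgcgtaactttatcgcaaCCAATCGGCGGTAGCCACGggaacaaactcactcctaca
Derl3, chr10:75893222-75893280, plus strand: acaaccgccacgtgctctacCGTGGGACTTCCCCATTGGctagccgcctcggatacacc
The compact form ERSE-II, which is ATTGG, any base and CCACG, was in 2 of the genes, Herpud1 and Dnajb11, and in 0.0365% of promoters. They are shown together, with the element in capitals, because their signals differ in the arrays.
Herpud1, chr8:94386357-94386407, plus strand: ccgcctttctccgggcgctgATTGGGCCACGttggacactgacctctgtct
Dnajb11, chr16:22857832-22857865, plus strand: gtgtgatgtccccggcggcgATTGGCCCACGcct
The core TGACGTGG of the element UPRE was in the promoter of Sec24d, among others, and in 0.676% of promoters. Among related genes of vesicle transport it was also in Kdelr3 and Sec16b. These 3 are shown, with the core in capitals and for Kdelr3 in its reverse complement, because each was at least 2-fold lower in the Cpdm culture.
Sec24d, chr3:123267450-123267497, plus strand: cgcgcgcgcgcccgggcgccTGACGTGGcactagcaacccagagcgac
Kdelr3, chr15:79516358-79516405, plus strand: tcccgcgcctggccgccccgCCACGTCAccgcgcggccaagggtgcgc
Sec16b, chr1:157506732-157506779, plus strand: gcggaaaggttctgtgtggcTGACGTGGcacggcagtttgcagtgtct
The composite element of Atf4, TGATGNAAT, was in none of the 31 genes and in 0.965% of promoters. A match describes these letters only, and the absence of a match says only that they are not in this window.

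The array pair sets the scale for what follows. Signals are linear MAS5 intensities scaled to the same mean in both arrays, with a floor at the 40th percentile of each array, which is 18.5 for Cpdm and 18.7 for wildtype. The 18 hybridisation spike-in probe sets had log2 ratios of Cpdm over wildtype between -0.22 and 0.20, and pairs of probe sets for the same gene implied an SD of 0.32 log2 units per probe set. Sharpin transcript was present in both cultures, at 162 in Cpdm and 197 in wildtype, and the Cpdm mutation need not remove it, so this signal does not check the genotype labels. Xist read 1113 in Cpdm against 247 in wildtype and Y-linked Uty 42.9 against 162, and this difference in sex-linked transcripts runs alongside every value below; its part in the results was not tested.

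The 38 genes were lower in the Cpdm culture more often than the array as a whole. At least 2-fold lower were 8 genes, or 21.1%, against 5.98% of all 14055 measured genes, while no gene among the 38 was higher by 2-fold, against 5.84% of all genes. At 1.5-fold, 17 genes were lower and 2 were higher, against 13.5% and 15.7% of all genes. Below 0 on the log2 scale were 33 of the 38, or 86.8%, against 47.6% of all genes. The median log2 ratio was -0.49, which is 71.3% of wildtype, against 0.03 over all genes. The 8 genes were Creb3l1, Sil1, Herpud1, Sec31a, Derl3, Sec23a, Sec24d and Dnajb9, and they came from 4 of the 5 roles.

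**Figure D1:**
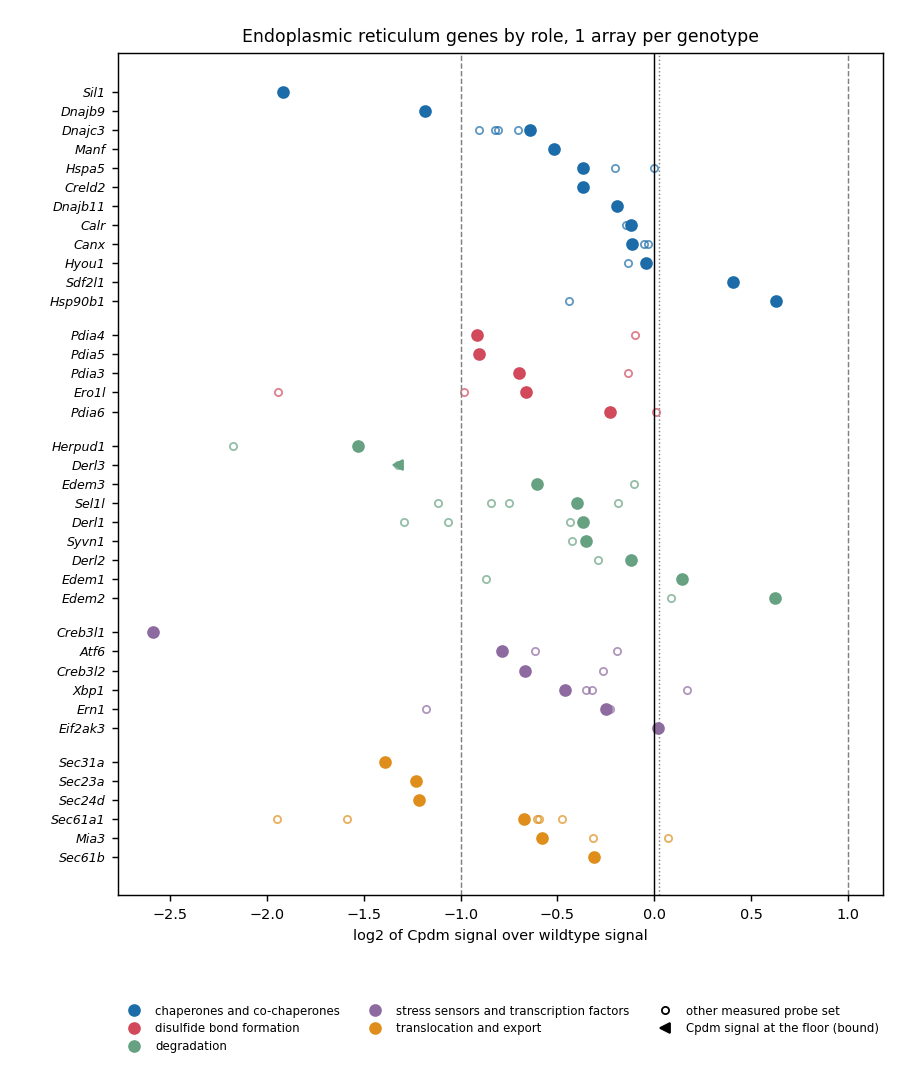
Log2 ratio of Cpdm over wildtype signal (horizontal axis) for each of the 38 genes, grouped by role. Filled symbols are the probe set that represents the gene, open circles its other measured probe sets, dashed lines mark 2-fold, the solid line 0 and the dotted line the median of all genes. Most filled symbols lie left of 0, with Creb3l1 farthest out at -2.59 and Hsp90b1 and Edem2 at the right, at 0.63 and 0.62.

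Several probe sets of the same gene mostly went the same way. Of the 89 probe sets 83 reached the floor in at least 1 array, and 74 of these were below 0 while 9 were above it. Over all measured probe sets 49.3% were below 0. At least 2-fold lower were 16 of the 83, against 5.91% of all measured probe sets, and 0 were at least 2-fold higher, against 5.15%. Of the 24 genes with several measured probe sets, 18 had all of them below 0 and 5 had both signs (Hsp90b1, Pdia6, Edem1, Xbp1 and Mia3). The remaining gene of the 24, Edem2, had both of its measured probe sets above 0. Among the 8 genes called lower, 7 rest on a single measured probe set, and Herpud1 had 2.

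All 6 genes of translocation and vesicle export were below 0 by their representative probe set, against 47.6% of all measured genes. At least 2-fold lower were 3 of the 6, against 5.98% of all measured genes. The median log2 ratio of the 6 was -0.94, or 52.0% of wildtype, the lowest median of the 5 roles. Sec23a, a subunit of the inner COPII coat, had a signal of 573 in Cpdm and 1345 in wildtype, which is 2.35-fold lower. Sec24d, the inner coat subunit that picks up cargo, read 343 in Cpdm and 794.5 in wildtype, 2.32-fold lower. Sec31a, part of the outer cage, read 359 in Cpdm and 943 in wildtype, 2.62-fold lower. These 3 genes belong to both layers of the same coat. Each was measured by 1 probe set that read far over the floor in either culture. Further genes of this coat, listed outside this role, were all under 2-fold by their representative probe sets. Sar1a, Sec24a, Sec13, Sec23b and Sar1b had log2 ratios of -0.99, -0.87, -0.55, -0.28 and -0.25. Sec24c and Sec24b were above 0, at 0.30 and 0.41. A further probe set of Sar1a gave -1.36, and one of Sec24b gave -0.46.

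The other export and channel genes differed less. Mia3, which encodes TANGO1, the receptor that loads procollagen into COPII carriers, read 337 in Cpdm and 503 in wildtype, a log2 ratio of -0.58. That probe set may cross-hybridise with related transcripts. The other measured Mia3 probe sets, which are not of that kind, gave -0.31 and 0.07. Sec61a1, the pore of the protein channel, read 639.9 in Cpdm and 1019.5 in wildtype, a log2 ratio of -0.67. All 6 Sec61a1 probe sets were below 0, and those at 119 against 358 and at 43.3 against 167 were past 2-fold, with log2 ratios of -1.59 and -1.95. Sec61b, a small channel subunit, was the least different of the 6, at 1535 in Cpdm and 1904 in wildtype. Its log2 ratio of -0.31 lies within the SD of 0.32 per probe set.

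**Figure D2:**
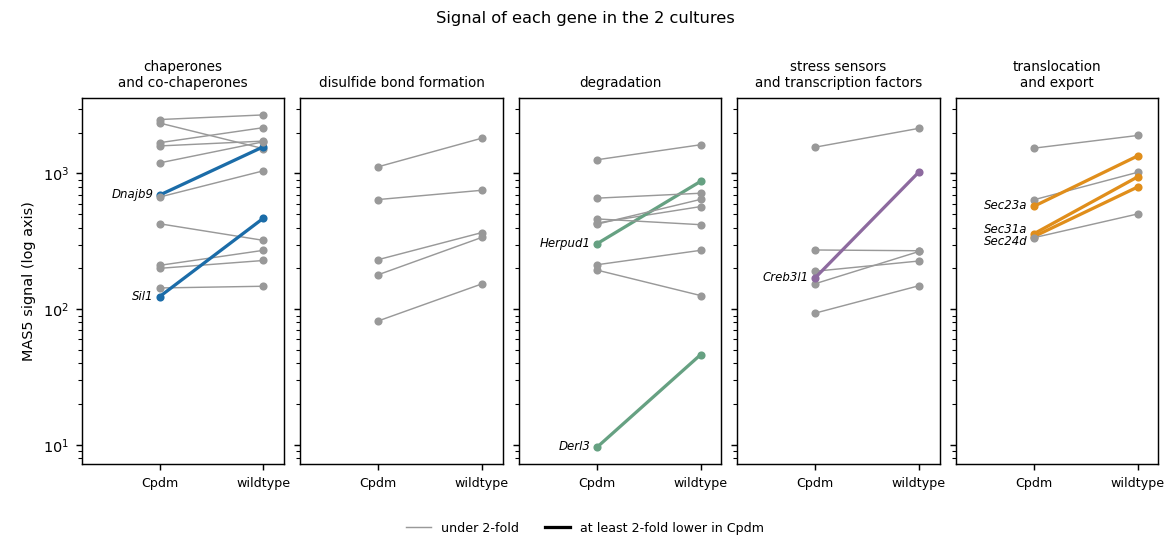
MAS5 signal (log axis) of the 38 genes in the Cpdm and the wildtype array, 1 line per gene by its representative probe set and 1 panel per role. Coloured lines are the 8 genes at least 2-fold lower in Cpdm, where Derl3 at 9.62 lies under the floor of 18.5; grey lines are the 30 genes under 2-fold, most of which also slope down towards Cpdm.

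Among the stress sensors and transcription factors, 1 gene stood far below the rest. Creb3l1 had a signal of 171 in Cpdm and 1028 in wildtype, which is 6.01-fold lower and the lowest log2 ratio of the 38 genes at -2.59. Only 0.875% of all measured genes had a ratio as low or lower. Its relative Creb3l2, which in mouse chondrocytes drives Sec23a, read 93.8 in Cpdm and 149 in wildtype, a log2 ratio of -0.67, with -0.26 by its other probe set.

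None of the 3 classical sensors passed 2-fold by its representative probe set. Atf6, which is cut in the Golgi to release a transcription factor, read 154 in Cpdm and 267 in wildtype, and all 3 of its probe sets were below 0, between -0.79 and -0.19. Ern1, the kinase and nuclease that splices Xbp1, read 191 in Cpdm and 227 in wildtype, while a dimmer probe set at 37.1 against 84.1 had a log2 ratio of -1.18. Eif2ak3, the kinase that slows translation under stress, was near equal at 273 in Cpdm and 269.9 in wildtype. Xbp1, the factor made after splicing, read 1562 in Cpdm and 2149 in wildtype, a log2 ratio of -0.46; a further probe set went the other way at 0.17. These probe sets measure the amount of Xbp1 transcript and do not show how much of it was spliced. The role's median log2 ratio was -0.56.

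Herpud1 had the lowest log2 ratio of the degradation genes that read over the floor in both arrays. This gene, a membrane protein that gathers the ligase complex, read 303 in Cpdm and 874 in wildtype, 2.88-fold lower. Its second probe set read 237 in Cpdm and 1067 in wildtype, a log2 ratio of -2.17. Both Herpud1 probe sets thus passed 2-fold. Syvn1, the ubiquitin ligase HRD1, read 213 in Cpdm and 272 in wildtype, and its partner Sel1l read 432 in Cpdm and 570.4 in wildtype. Syvn1 had log2 ratios of -0.35 and -0.43 by its 2 probe sets. Sel1l was at -0.40 by its representative probe set and at -0.84, -0.75, -1.12 and -0.19 by the others, so the size of its difference depends on the probe set.

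The derlins, which help move misfolded chains across the membrane, differed in size. Derl3 lay under the floor in Cpdm at 9.62 and read 46.3 in wildtype, so it was at least 2.51-fold lower, with both signals in the noisy range of the array. Derl1 read 1261 in Cpdm and 1627 in wildtype by its representative probe set, a log2 ratio of -0.37. That probe set may cross-hybridise with related transcripts, and those not of that kind gave -1.06, at 424 against 886, and -1.29, at 340.0 against 833, so the size of the Derl1 difference depends on the probe set. Derl2 was close to equal, at 658 in Cpdm and 715 in wildtype.

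The Edem genes, whose products trim mannose from misfolded glycoproteins and so mark them for disposal, went in different directions. Edem3 read 423 in Cpdm and 644 in wildtype, a log2 ratio of -0.61. Edem2 read 195 in Cpdm and 126 in wildtype, a log2 ratio of 0.62 and the highest in this role. Edem1 was undecided: its representative probe set read 463 in Cpdm and 419.9 in wildtype, and the other read 316 in Cpdm and 578 in wildtype, a log2 ratio of -0.87. Over the 9 degradation genes 7 were below 0, against 47.6% of all measured genes, and the median log2 ratio was -0.37. At least 2-fold lower were 2 of the 9, against 5.98% of all measured genes. Of these 2, Derl3 was under the floor in Cpdm.

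Among the large chaperones of the endoplasmic reticulum, Calr, Canx and Hyou1 were near their wildtype level, and Hspa5 and Hsp90b1 differed by more in opposite directions. Hspa5, the BiP chaperone that also holds the sensors inactive, read 1685 in Cpdm and 2174 in wildtype, a log2 ratio of -0.37, with -0.20 and -0.00 by its other probe sets. Calr and Canx, which hold glycoproteins during folding, had log2 ratios of -0.12 and -0.11, and each had 3 probe sets within -0.15 and -0.03. Hyou1, a large relative of BiP, read 144 in Cpdm and 148 in wildtype. The differences of Calr, Canx and Hyou1 lie within the SD of 0.32 per probe set. Hsp90b1, the chaperone GRP94, had the highest log2 ratio of all 38 genes at 0.63, with signals of 2349.8 in Cpdm and 1523 in wildtype, but its second probe set read 181 in Cpdm and 246 in wildtype, in the opposite direction.

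The BiP helpers spanned a wide range. Sil1, which exchanges the nucleotide on BiP, read 124 in Cpdm and 469 in wildtype, 3.78-fold lower. Dnajb9, a J-domain partner of BiP that also restrains Ern1, read 694 in Cpdm and 1574 in wildtype, 2.27-fold lower. Each of these 2 genes had 1 probe set, and both arrays read it above their floor. Dnajc3, another J-domain partner of BiP, read 671 in Cpdm and 1046 in wildtype, and its 5 probe sets agreed closely, between -0.91 and -0.64. The other helpers were within 1.5-fold of wildtype. Dnajb11 had a log2 ratio of -0.19 and its partner Sdf2l1 one of 0.41, at 426 in Cpdm and 322 in wildtype. The stress-induced luminal proteins Creld2 and Manf had log2 ratios of -0.37 and -0.52. Over the 12 chaperones and co-chaperones the median was -0.28, the smallest shift of the 5 roles.

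All 5 genes of disulfide bond formation were below 0, against 47.6% of all measured genes. None was past 2-fold by the representative probe set. Pdia4 read 179.8 in Cpdm and 339 in wildtype, and Pdia5 read 82.2 in Cpdm and 154 in wildtype, both with a log2 ratio of -0.91. Pdia3, which works with calnexin and calreticulin, read 1121 in Cpdm and 1819.7 in wildtype, a log2 ratio of -0.70. Pdia6 was closest to wildtype with a log2 ratio of -0.23. The isomerases Pdia3, Pdia4 and Pdia6 each had a second, dim probe set with a log2 ratio between -0.13 and 0.01.

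Ero1l, the oxidase that hands oxidising power to the isomerases, was lower by all 3 probe sets, but by different amounts. The representative probe set read 232 in Cpdm and 367 in wildtype, a log2 ratio of -0.66. The others read 141 in Cpdm against 542 in wildtype and 99.3 in Cpdm against 196 in wildtype, with log2 ratios of -1.94 and -0.98. The role's median was -0.70, or 61.6% of wildtype.

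**Figure D3:**
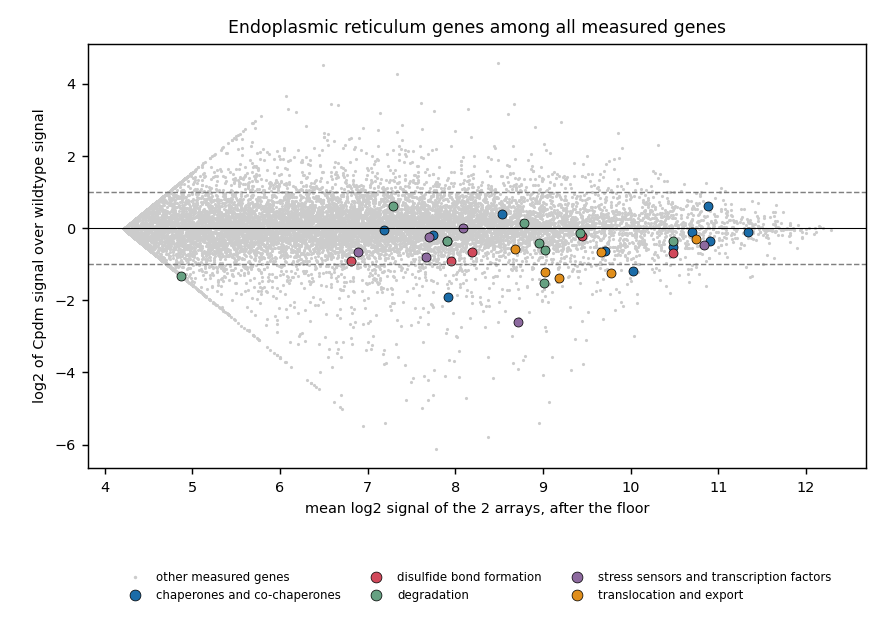
Log2 ratio of Cpdm over wildtype signal (vertical axis) against the mean log2 signal of both arrays (horizontal axis) for all 14055 measured genes in grey and the 38 genes in colour by role. Dashed lines mark 2-fold. The 8 genes at least 2-fold lower lie at different signal levels, with Derl3 alone near the floor.

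Genes of the same route and of its stress response that are not among the 38 also leaned lower. The 5 lists of them held 151 genes with a probe set, of which 145 were measured. Of these 19, or 13.1%, were at least 2-fold lower, against 5.98% of all measured genes, and 0 were higher by that much. Below 0 were 115, and the median log2 ratio was -0.43. The list of other stress sensors and PERK-branch targets, described in the next paragraph, supplied 7 of the 19. In the list of other vesicle transport genes 4 of 37 were at least 2-fold lower and the median was -0.53. There Sec16b, which organises the exit sites, read 25.9 in Cpdm and 151 in wildtype, and Kdelr3, a receptor that returns escaped chaperones, read 297 in Cpdm and 1348 in wildtype, 4.54-fold lower. In the list of other folding and glycoprotein enzymes 4 of 29 were at least 2-fold lower and the median was -0.36. The prolyl isomerase genes Fkbp11 and Fkbp7 led it, 3.66-fold and 3.49-fold lower, although a second Fkbp11 probe set had a log2 ratio of 0.28. Other translocation and glycosylation genes had 2 of 31 at least 2-fold lower, or 6.45%, a share near that of all genes. They were Rpn2 of the oligosaccharide transferase at 2.80-fold and the translocon partner Ssr2 at 2.19-fold, and 28 of the 31 were below 0 with a median of -0.37. Other degradation genes had 2 of 26 at least 2-fold lower, or 7.69%, also near that share. They were the lectin gene Erlec1 at 2.87-fold and the rhomboid protease gene Rhbdd1 at 2.23-fold, and the list's median was -0.21. A further Erlec1 probe set had a log2 ratio of 0.15.

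Among the 5 related lists, that of other stress sensors and PERK-branch targets had the lowest median log2 ratio and the lowest single ratio. Of its 22 measured genes 7, or 31.8%, were at least 2-fold lower, against 5.98% of all measured genes. None was higher by that much, against 5.84% of all genes, and the median log2 ratio was -0.63. Chac1, which breaks down glutathione, read 47.9 in Cpdm and 882 in wildtype, 18.4-fold lower. Trib3, a pseudokinase that feeds back on Atf4, read 66.6 in Cpdm and 594 in wildtype, 8.93-fold lower, and its second probe set gave a log2 ratio of -3.04. The other 5 are named here after their values were seen. They are the asparagine synthetase gene Asns at 344 in Cpdm and 1975 in wildtype, Creb3l3, Atf5, the stress factor gene Ddit3 at 287 in Cpdm and 924 in wildtype, and Atf4 itself at 819 in Cpdm and 1803 in wildtype. Eif2ak3, which encodes PERK, was near equal in transcript level, as given above. Through which sensor or kinase the genes of this list differed was not tested.

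**Figure D4:**
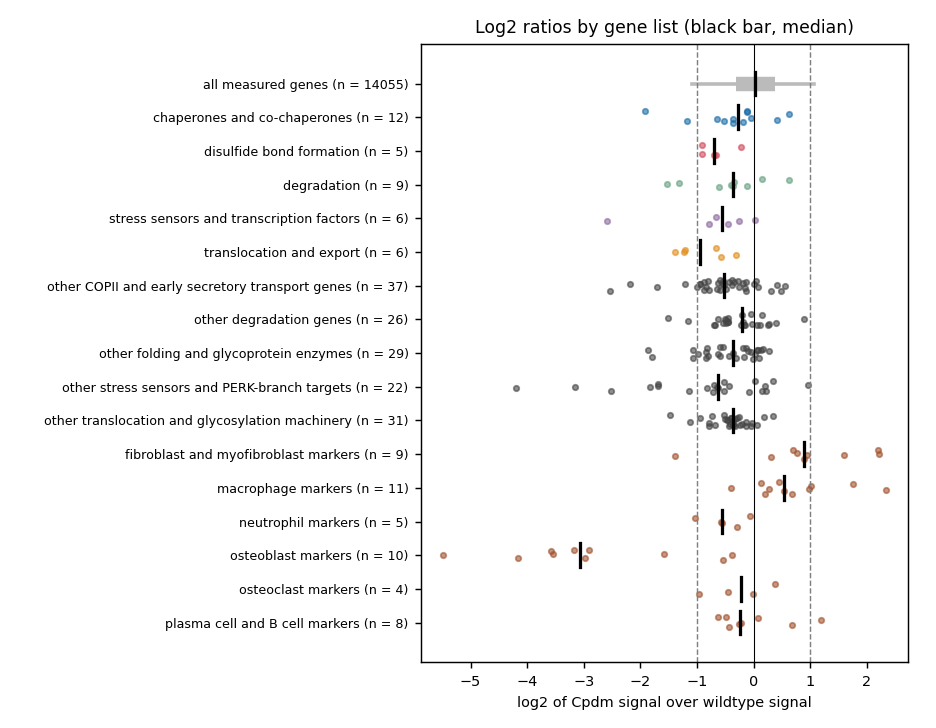
Log2 ratio of Cpdm over wildtype signal (horizontal axis) by gene list, with 1 point per measured gene and a black bar at the median. For all measured genes the grey bar spans the middle 50% and the thin line the middle 90%; dashed lines mark 2-fold. The medians of the 5 roles and of the 5 related lists lie between -0.94 and -0.21, and the osteoblast markers lie far to the left at a median of -3.08.

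Of the genes with an ERSE 8 were below 0 and 1, Hsp90b1, was above it. Of those with a promoter and no exact ERSE 18 were below 0 and 4 above. Over all measured genes 47.6% were below 0. The 9 genes with an ERSE had log2 ratios between -1.32 and 0.63 with a median of -0.35, and 1 of them, Derl3, was at least 2-fold lower. The 22 genes with a promoter and no exact ERSE had a median of -0.59, with 5 at least 2-fold lower. Over all measured genes 5.98% were at least 2-fold lower. The 7 genes without a promoter sequence, among them Creb3l1 at -2.59 and Sil1 at -1.92, are in neither set. Of the 2 genes with ERSE-II, Herpud1 was at -1.53 and Dnajb11 at -0.19. Among all 120 measured genes with the UPRE core 12, or 10.0%, were at least 2-fold lower, against 5.98% of all measured genes. The median of the 120 was -0.26. The 12 include Sec24d, Kdelr3 and Sec16b, which were shown above because they were lower, so this share is not independent of that choice. Of the 7 related genes with that core, Kdelr3 and Sec16b passed 2-fold, and Stx5a, Txndc5, Txndc11, Ube2j1 and Vcp had log2 ratios between -0.59 and 0.06.

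Markers of the cells that such a culture can hold moved alongside these genes. All 10 measured osteoblast markers were below 0, 8 were at least 2-fold lower, their median log2 ratio was -3.08, and their summed signal was 8109 in Cpdm and 19878 in wildtype. Phex, a phosphate-regulating endopeptidase of osteocytes, was under the floor in Cpdm, and Pth1r, the parathyroid hormone receptor, was 17.9-fold lower. Of 11 macrophage markers 10 were above 0 and 3 were at least 2-fold higher, led by Aif1 and Fcgr1, and their summed signal was 17484 in Cpdm and 12735 in wildtype. Of 9 fibroblast and myofibroblast markers 8 were above 0, with Tagln and Cnn1 at 4.66-fold and 4.60-fold higher and Fap at 2.63-fold lower, and the summed signal was 13944 in Cpdm and 8746 in wildtype. The part of these shifts in the values of the endoplasmic reticulum genes was not tested.

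Plasma cells, which secrete antibody and depend on Xbp1, were checked by their own list. Of 10 plasma cell and B cell markers with a probe set 8 were measured, with Tnfrsf17 and Cd79a under the floor in both arrays, and the summed signal was 1395 in Cpdm and 1184 in wildtype. Sdc1, a marker that stromal cells and macrophages also express, held 716 of that sum in Cpdm and 314 in wildtype. It was the only one past 2-fold, at 2.28-fold higher, but its 4 measured probe sets had log2 ratios between -0.27 and 1.23. Of the 8 measured markers 5 were below 0, and the median log2 ratio was -0.24. Ighm, the heavy chain gene, read 344 in Cpdm and 530.5 in wildtype, but its 7 measured probe sets had log2 ratios between -0.90 and 0.46. The antibody joining chain gene Jchain read 111 in Cpdm and 129 in wildtype. Prdm1 went the other way, at 97.1 in Cpdm and 60.6 in wildtype, 1.60-fold higher. Osteoclast markers had 4 of 7 measured and neutrophil markers 5 of 7, with summed signals of 1207 against 2127 and 131 against 206 in Cpdm against wildtype. Ctsk, the collagen-cutting protease, held 969 of the osteoclast sum in Cpdm and 1889.9 in wildtype. Acp5, the acid phosphatase, was near equal at 156 in Cpdm and 157 in wildtype, and Oscar read 53.5 in Cpdm and 41.3 in wildtype. Among the neutrophil markers only Ltf passed 2-fold, under the floor in Cpdm.

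The main cargo of this route differed by chain. Col1a1 read 1070.0 in Cpdm and 3222 in wildtype, 3.01-fold lower, and 4.78-fold lower by its other probe set. Col1a2 read 3408 in Cpdm and 3432 in wildtype by its brightest probe set, near the top of the signal range, while the others gave log2 ratios of -1.03 and -2.84. Col3a1 went the other way, at 3079.7 in Cpdm and 1505 in wildtype, 2.05-fold higher, and 3.64-fold higher by its other probe set.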

How the data were processed

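RNA from 2 cultures was measured on 2 Affymetrix arrays, 1 per genotype. The authors deposited linear MAS5 signal intensity values; per the submitters' processing notes the software was GCOS 1.4 with MAS5. Both columns had a mean of 100.0 once 2% of probe sets were trimmed at each end, and the table holds no detection calls or error per value. No count depth exists; the number of arrays limits the precision. Of 45037 non-control probe sets, 34945 carry 1 gene in the platform annotation, 932 several and 9160 none, and only the first kind was used, so a probe set naming Sec61b with another gene was left out. Names were matched by symbol or, for older symbols, by Entrez identifier.

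Signals under the floor (40th percentile of each array) were set to it, a gene was measured if its probe set reached the floor in at least 1 array, and was represented by its brightest probe set (mean log2 signal of both arrays). Ratios are log2 of Cpdm over wildtype, and genes were counted by a fixed size of 2-fold. The steps were tested on simulated data. Alternatives changed the floor, the scaling, the probe set and the fold rule. All 38 genes are named; of each related and marker list, up to 2 genes past 2-fold in each direction with the largest ratio. Other genes of those lists were named after their values were seen. Among them are Ighm, Jchain, Prdm1, Ctsk, Acp5, Oscar, other COPII coat genes, 5 genes of the PERK-branch list and those with the UPRE core. The genes and lists were chosen with earlier results of these data known. Protein sequences were not used here, and 1 promoter match is not reported here. Python 3.11.15, numpy 2.4.6 and pandas 2.3.3 were used.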

Additional observations from a re-analysis of the deposited data

How the results depend on the processing

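The 38 genes kept a negative median log2 ratio under all 9 alternative floors, scalings and probe set rules, between -0.55 and -0.43, with 33 or 34 genes below 0 and 7 to 9 at least 2-fold lower. At 1.5-fold in place of 2-fold, 17 were lower and 2 higher. The medians of the 5 roles stayed below 0; with the mean over probe sets the disulfide median was -0.51, the translocation and export median -1.10 and the median of other vesicle transport genes -0.39, and 1 of the other degradation genes was at least 2-fold lower. The disulfide median was -0.91 with the probe set brightest in wildtype. None of the 8 genes at least 2-fold lower changed sign under an alternative. Of the 342 values of single genes under an alternative 13, in 7 genes, moved by at least the SD of 0.32 per probe set. Edem1 changed sign, from 0.14 to -0.36 with the mean over probe sets and to -0.87 with the probe set brightest in wildtype. Ero1l was past 2-fold with the mean over probe sets and with the probe set brightest in wildtype (-1.20 and -1.94), and Derl1 without probe sets that can bind related transcripts (-1.06). Derl3 lost its 2-fold difference with the floor at the 60th percentile (-0.11) and was at -2.27 without a floor. Without a floor 10.4% of all genes were at least 2-fold lower. No paired analysis was possible because each genotype has 1 array and the values come from no test. MAS5 signals near the floor are noisy, which limits Derl3, and bright signals such as those of Calr, Canx and Hspa5 can be compressed, which was not tested.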
